A study of Arabidopsis thaliana with 12 samples.

Results

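The WRKY family of *Arabidopsis thaliana* was examined in the transcriptomes of seedlings of 3 genotypes kept in white light (WL) or in the same light enriched with far-red (WL+FR), which imitates the shade of neighbouring plants. Members were the genes whose name in the deposited tables is WRKY or ATWRKY followed by a number, 70 of the 32824 genes listed. Of these, 54 had a mean of at least 0.5 TPM (FPKM values rescaled so that every library has the same sum) over the 12 libraries and were tested, among 20020 tested genes in all. The other 16 were under that mean and were counted but not tested.

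The groups were *rev-5* in WL+FR, *rev-5* in WL, *wox4* in WL+FR, *wox4* in WL, Col-0 in WL+FR and Col-0 in WL, with 2 libraries each. Col-0 is the wild type. The *rev-5* line carries an amino acid substitution in *REV*, a homeodomain factor of leaf polarity and vascular tissue, and *wox4* is the T-DNA insertion line wox4-1 in *WOX4*, a homeobox factor of the vascular cambium. All seedlings were grown on MS plates in WL for 2 days and then for 8 days in WL or WL+FR, so that they were 10 days old when RNA was taken. Each mutant was represented by a single line, and whole seedlings were used, so that fewer cells of a type and less RNA per cell cannot be told apart.

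WRKY factors are plant transcription factors named after the amino acids of a conserved heptapeptide, which is followed by a zinc finger and inserts into the major groove of DNA at a motif called the W-box. Several of them sit downstream of mitogen-activated protein kinase cascades and regulate each other and themselves through W-boxes. In Arabidopsis they are best known from pathogen defence, and further members act in leaf senescence, in the responses to heat and to phosphate starvation, in trichomes and in secondary walls.

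Read as counting error alone, the bounds given around each value correspond to 7.02 M to 7.82 M fragments per table (M, 1e6). This is well below the read pairs that the study's methods give, so it is not the sequencing depth and no number of fragments per gene is drawn from it. Between 11663 and 11933 genes were listed at 0 in a library. *REV* transcript, in which the *rev-5* allele is a substitution, was at 6.37 and 6.67 TPM in *rev-5* and 6.0 and 6.96 TPM in Col-0 in WL+FR, so that its level checks nothing. *WOX4* transcript was at 146.2 and 149.0 TPM in WL+FR and 113.5 and 112.0 TPM in WL in the libraries labelled *wox4*, against 2.82 and 3.93 TPM in WL+FR and 1.92 and 3.05 TPM in WL in Col-0, the direction opposite to a loss of transcript, and every value given below for *wox4* is that of the libraries labelled so. Both root and green shoot marker transcripts were present in every library.

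The coding sequence of the heptapeptide is shown for 4 genes, 5′ to 3′ on the coding strand, because it defines the family and because its sixth residue sets some members apart. The sequences were read from TAIR10.1 (RefSeq), in which all 70 members have the same start and end as in the tables. Capitals mark the sixth codon, which reads glutamine in *WRKY70*, *WRKY33* and *WRKY31* and lysine in *WRKY51*. They lie at chr3:20909760-20909780 on the minus strand (*WRKY70*), chr2:16109358-16109378 and chr2:16109982-16110002 on the plus strand (*WRKY33*), chr4:11692187-11692207 on the minus strand (*WRKY31*) and chr5:25908864-25908884 on the plus strand (*WRKY51*).
WRKY70: tggaggaaatatggaCAAaag
WRKY33 first copy: tggagaaagtacggaCAAaaa
WRKY33 second copy: tggagaaaatacggcCAGaaa
WRKY31: tggagaaagtacggaCAAaaa
WRKY51: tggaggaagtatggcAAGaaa
By translation of the annotated coding sequences, 12 members hold 2 heptapeptides (group I), 13 have a zinc finger with the C2HC pattern (group III) and 45 have a single heptapeptide and no C2HC finger. Besides *WRKY51*, lysine at the sixth residue was found in *WRKY50* and *WRKY59*. Of the 13 group III genes, 9 were under 0.5 TPM, against 2 of the 12 with 2 heptapeptides and 5 of the other 45.

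In these seedlings the most abundant members were *WRKY39*, *WRKY65*, *WRKY15*, *WRKY11* and *WRKY7*, with means of 60.5, 50.9, 50.1, 45.8 and 31.4 TPM over the 12 libraries. *WRKY7*, *WRKY11*, *WRKY15* and *WRKY39* belong, with *WRKY17*, *WRKY21* and *WRKY74*, to subgroup IId, whose proteins bind calmodulin, and *WRKY65* belongs to subgroup IIe. The lowest tested member was *WRKY74* with a mean of 0.535 TPM. *WRKY34*, *WRKY41*, *WRKY64*, *WRKY66* and *WRKY68* were listed at 0 in all 12 libraries, and the other 11 untested members had means between 0.007 and 0.362 TPM. An exact 0 may be a failed estimate rather than an absent transcript, as set out for *WRKY40* below. *WRKY41* overlaps *3xHMG-box1*, which was at 5.81 to 9.59 TPM, over 517 bases. *WRKY34* overlaps *CSN6B*, which was at 2.74 to 5.15 TPM, over 34 bases. Among the untested members were *WRKY10*, a regulator of seed size, *WRKY12*, a repressor of secondary wall formation in pith, and *WRKY34*, known from pollen.

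The first question was whether WL+FR changed the family. The summed transcript level of the family was higher in WL+FR in each genotype. Summed over the 70 members, the level was 749 and 771 TPM in WL+FR, against 616 and 602 TPM in WL, in *rev-5*, 730 and 742 TPM against 565 and 554 TPM in *wox4*, and 680 and 718 TPM against 564 and 558 TPM in Col-0. The ratio of the means was 1.25 in *rev-5*, 1.32 in *wox4* and 1.25 in Col-0. No WL+FR library overlapped a WL library, in any genotype. With 2 libraries in each group, an exact test of one such value cannot go below p = 0.333, and single genes were therefore tested in the fit across all genes. Without the 10 members called higher in all 3 genotypes (named below), the mean sum in *rev-5* was 478 TPM in WL+FR against 407 TPM in WL. It was 471 TPM against 386 TPM in *wox4* and 446 TPM against 393 TPM in Col-0. Those 10 were picked by their rise in these same libraries.

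Called at an adjusted p under 0.05, 13 of the 54 tested members were higher in WL+FR in *rev-5*, 17 in *wox4* and 13 in Col-0, and none was lower. Over all 20020 tested genes, 11%, 15.4% and 13.3% were called higher in these genotypes (13.9%, 18.8% and 17.7% in either direction), against 24.1%, 31.5% and 24.1% of the tested members. The median log2 fold change of the members was 0.27 in *rev-5*, 0.33 in *wox4* and 0.26 in Col-0, beside 0.11, 0.13 and 0.08 over all tested genes. It was above 0 in 48, 48 and 43 of the 54, beside 68.9%, 70.4% and 62.7% of all tested genes. Fewer members were called in *rev-5* on leaving out any of the 4 *rev-5* libraries and in *wox4* on leaving out any of the 4 *wox4* libraries. In Col-0 fewer were called without Col-0 WL replicate 1 or WL+FR replicate 4. The share of all tested genes called in these fits is not given here. With 1 library left out, the median of the members ran from 0.19 to 0.35 in *rev-5*, 0.29 to 0.38 in *wox4* and 0.23 to 0.31 in Col-0. Quantile normalization, which removes the shift of all genes, left 4 members called in *rev-5*, 9 in *wox4* and 9 in Col-0, all higher, with medians of 0.14, 0.18 and 0.14. In the same fit 2102, 2654 and 3103 of the 20020 tested genes were called in either direction in *rev-5*, *wox4* and Col-0. Members were thus called less often than genes in general in *rev-5*, and little more often in *wox4* and Col-0.

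Marker transcripts moved with the light too. The summed level of 9 root markers, of which *PYK10* alone made up 510 to 829 TPM, was between 981 and 1200 TPM in the WL+FR libraries, against 679 to 929 TPM in the WL libraries, and that of 12 early touch and wound genes was between 372 and 398 TPM in WL+FR, against 238 to 304 TPM in WL. Of the 8 tested root markers, 3 were called higher in each genotype (*PYK10*, *CASP1* and *TIP2-3*). The median log2 fold change of the tested root markers was 0.36 in *rev-5*, 0.33 in *wox4* and 0.05 in Col-0, beside 0.11, 0.13 and 0.08 over all tested genes, and in Col-0 *EXPA7* (-0.40), *NAXT1* (-0.23) and *COBL9* (-0.08) had values below 0. Of the 11 tested touch and wound genes, 7, 9 and 8 were called higher in *rev-5*, *wox4* and Col-0, with *TCH4* called lower in *rev-5* and *wox4*. Of the 4 green shoot markers 1, 1 and 2 were called higher and 2, 1 and 1 lower in *rev-5*, *wox4* and Col-0. They summed to 24317 to 26660 TPM in WL+FR and 25589 to 30139 TPM in WL, and the 3 senescence markers to 11.6 to 19.8 TPM in WL+FR and 10.9 to 19.3 TPM in WL. The part of these differences in the WRKY values was not tested.

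**Figure D1:**
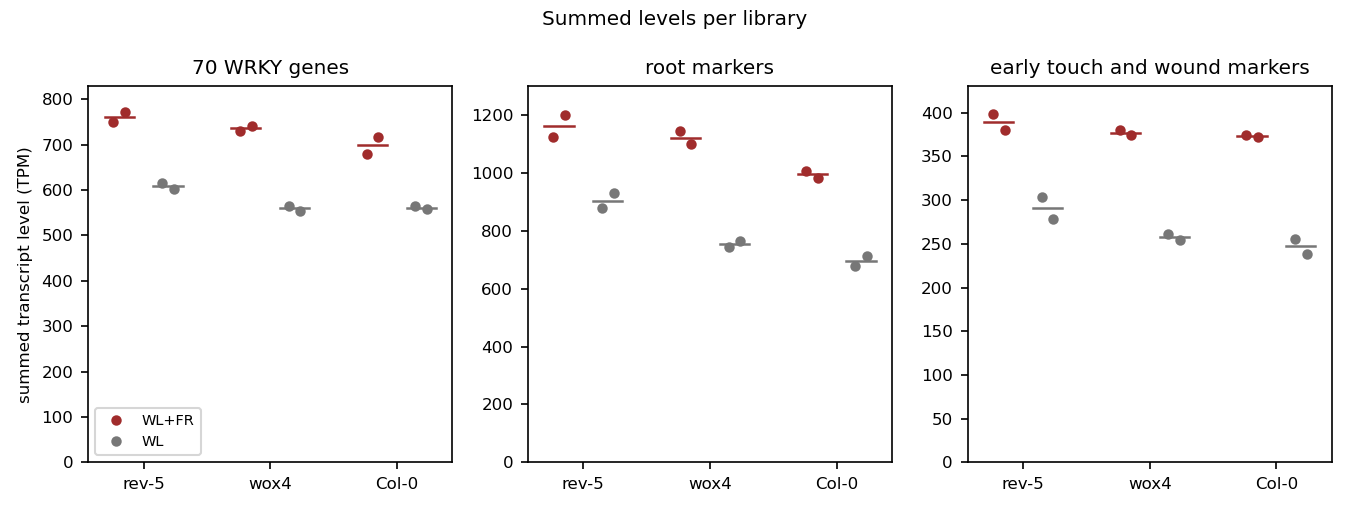
Summed transcript level (TPM, from 0) of the 70 WRKY genes, of the 9 root markers and of the 12 early touch and wound genes in each library, by genotype and light; points are libraries and bars the mean of 2. In each panel all WL+FR libraries of a genotype lie above its WL libraries, and the WRKY sums run from 680 to 771 TPM in WL+FR and from 554 to 616 TPM in WL.

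Of the tested members, 10 were called higher in WL+FR in all 3 genotypes, namely *WRKY6*, *WRKY17*, *WRKY25*, *WRKY26*, *WRKY31*, *WRKY33*, *WRKY39*, *WRKY65*, *WRKY70* and *WRKY75*. They make up 18.5% of the tested members, against 6.92% of all tested genes called higher in each genotype. Their log2 fold changes lay between 0.30 and 1.41. The share of all tested genes called in each genotype is given for the main fit only, and not for the alternatives that follow. Under quantile normalization 2 members (*WRKY39* and *WRKY70*) were called in all 3 genotypes, and with 1 library left out 4 to 9 were: 4 without *wox4* WL replicate 5, *rev-5* WL replicate 9 or *rev-5* WL+FR replicate 11, 7 to 9 without Col-0 WL replicate 2 or either Col-0 WL+FR library, and 5 or 6 without any of the others. Of the 43 calls of members in the 3 genotypes, 25 were lost on leaving out at least 1 library. The calls kept with any 1 library left out were those of *WRKY39* and *WRKY70* in each genotype and of *WRKY75* in *rev-5* and Col-0. Also kept were those of *WRKY17*, *WRKY33* and *WRKY65* in *wox4* and Col-0. The rest of the kept calls were *WRKY31* in *rev-5*, *WRKY25* and *WRKY72* in *wox4* and *WRKY6* in Col-0. *WRKY14*, *WRKY24* and *WRKY72* were called in 2 genotypes, and *WRKY4*, *WRKY7*, *WRKY15*, *WRKY45*, *WRKY47*, *WRKY51* and *WRKY53* in 1, so that 20 members, or 37.0%, were called in at least 1 genotype, against 21% of all tested genes. Both WL+FR libraries lay above both WL libraries in all 3 genotypes in 22 members (40.7%), against 20.7% of all tested genes. In each genotype alone this held for 30 members in *rev-5*, 39 in *wox4* and 30 in Col-0, or 55.6%, 72.2% and 55.6%, against 41.8%, 45.8% and 38.6% of all tested genes.

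**Figure D2:**
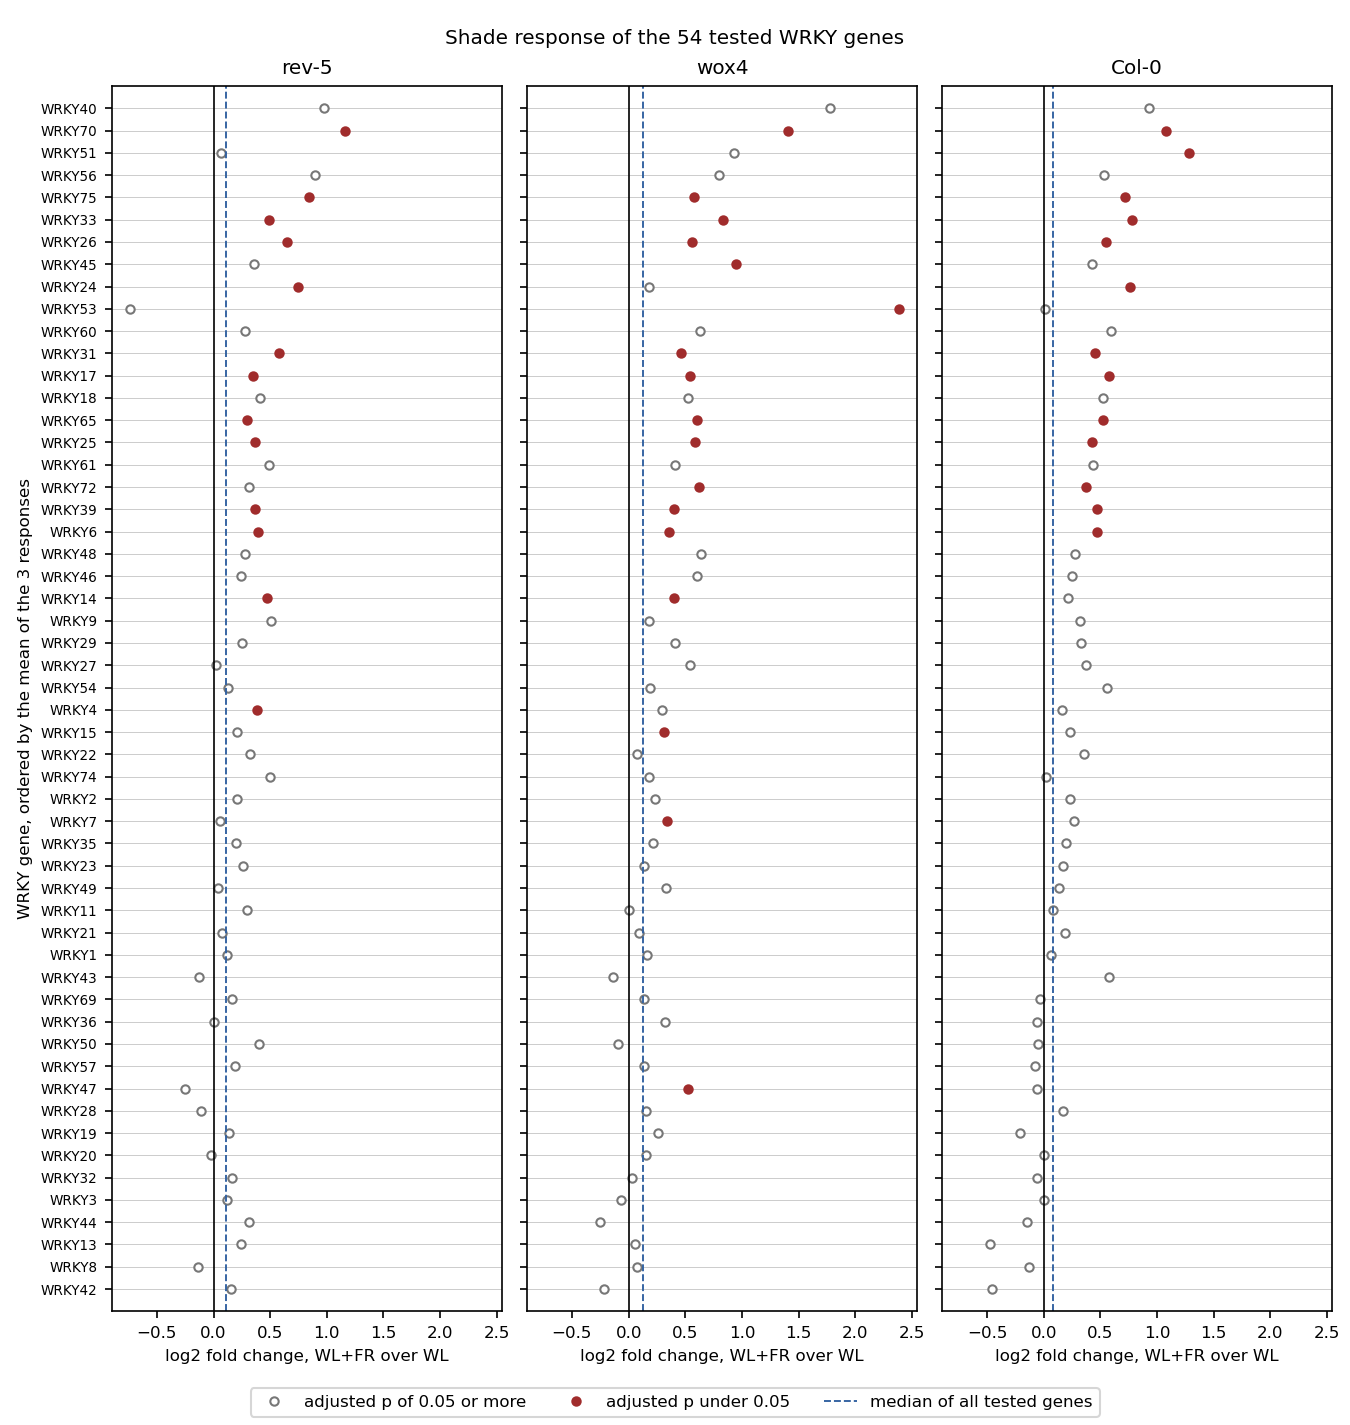
Log2 fold change of WL+FR over WL for the 54 tested WRKY genes in *rev-5*, *wox4* and Col-0, ordered by the mean of the 3 responses; filled points passed an adjusted p of 0.05, the solid line is 0 and the dashed line the median of all tested genes. All 43 filled points lie above 0, and the point of *WRKY53* in *wox4* rests on WL libraries listed at 0.

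*WRKY70* (chr3:20908711-20910623), a group III factor at the junction of salicylic acid and jasmonate signalling, was the only member that also passed a stricter rule in each genotype, an adjusted p under 0.01 with a log2 fold change beyond 1 in size. That rule was passed by 1.03%, 1.56% and 1.70% of all tested genes in *rev-5*, *wox4* and Col-0. *WRKY70* was at 20.6 and 20.96 TPM in WL+FR, against 9.85 and 7.74 TPM in WL, in *rev-5*, at 20.3 and 19.5 TPM in WL+FR, against 6.38 and 7.43 TPM in WL, in *wox4*, and at 13.9 and 13.1 TPM in WL+FR, against 6.68 and 5.14 TPM in WL, in Col-0. Every WL+FR library was above every WL library of any genotype, and the Col-0 libraries were the lowest in WL+FR. For *WRKY70* the log2 fold change was 1.16 in *rev-5*, 1.41 in *wox4* and 1.08 in Col-0, each with an SE of 0.14, at adjusted p values of 0.000516, 0.000115 and 0.000554 in that order.

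The other tested group III genes were low. *WRKY53*, which promotes leaf senescence, *WRKY54*, which acts with *WRKY70* in salicylic acid signalling and senescence, and *WRKY46*, a relative with a part in drought and salicylic acid responses, had means of 3.21, 2.33 and 0.707 TPM. *WRKY53* was at 0 and 5.40 TPM in WL+FR, against 3.29 and 3.15 TPM in WL, in *rev-5*, at 4.33 and 4.15 TPM in WL+FR, against 0 and 0 TPM in WL, in *wox4*, and at 3.61 and 5.62 TPM in WL+FR, against 4.77 and 4.22 TPM in WL, in Col-0. It was listed at 0 in 3 libraries, among them both WL libraries of *wox4*. The call in *wox4* (adjusted p = 0.0304) rests on these, was lost on leaving out any of 8 of the 12 libraries, and is given without a fold. *WRKY53* overlaps *3xHMG-box2*, which was at 22.6 to 34.4 TPM, over 341 bases, and how reads were shared between such neighbours is not given in the sources used here. *WRKY54* was at 2.49 and 2.25 TPM in WL+FR, against 2.72 and 1.56 TPM in WL, in *rev-5*, at 2.56 and 2.98 TPM in WL+FR, against 2.11 and 2.53 TPM in WL, in *wox4*, and at 2.24 and 3.42 TPM in WL+FR, against 1.35 and 1.80 TPM in WL, in Col-0. Its light groups overlapped in *rev-5*, and its adjusted p was 0.789 in *rev-5*, 0.641 in *wox4* and 0.135 in Col-0.

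**Figure D3:**
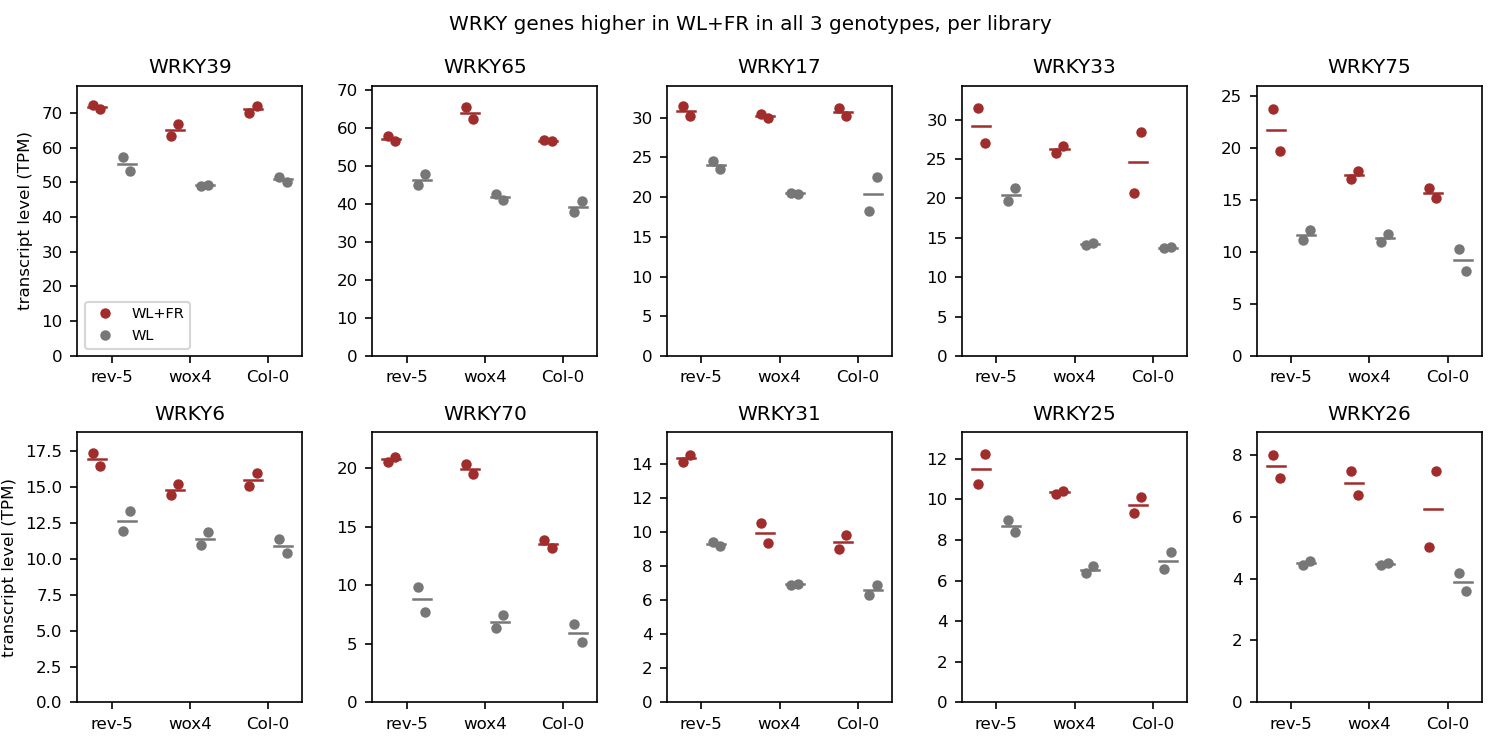
Transcript level (TPM, each axis from 0) of the 10 WRKY genes called higher in WL+FR in all 3 genotypes, per library; points are libraries, red for WL+FR and grey for WL, and bars the mean of 2. In every panel both WL+FR points of a genotype lie above both of its WL points, with the widest gap relative to the level in *WRKY70*.

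The group I genes *WRKY33*, *WRKY25* and *WRKY26* were called higher in WL+FR in each genotype. The calls of *WRKY33* and *WRKY25* in *rev-5* were lost on leaving out any of 10 and 11 of the 12 libraries, and those of *WRKY26* on leaving out any of 4 in *rev-5*, 10 in *wox4* and 11 in Col-0. Quantile normalization ended the calls of *WRKY33* in *rev-5*, of *WRKY25* in *rev-5* and Col-0 and of *WRKY26* in all 3 genotypes. *WRKY33* (chr2:16108235-16110766) is required for resistance to necrotrophic fungi and switches on the camalexin gene *PAD3*, and *WRKY25* and *WRKY26* act with it in tolerance to heat. *WRKY33* was at 31.4 and 27.1 TPM in WL+FR, against 19.6 and 21.3 TPM in WL, in *rev-5*, at 25.7 and 26.7 TPM in WL+FR, against 14.1 and 14.3 TPM in WL, in *wox4*, and at 20.7 and 28.5 TPM in WL+FR, against 13.7 and 13.8 TPM in WL, in Col-0. In Col-0 the 2 WL+FR libraries were far apart, yet both exceeded the WL libraries. For *WRKY33* the log2 fold change was 0.49 in *rev-5*, 0.84 in *wox4* and 0.78 in Col-0, each with an SE of 0.13, at adjusted p values of 0.0359, 0.00195 and 0.00292 in that order. *WRKY33* overlaps AT2G38480 over 26 bases and AT2G08965, listed at 0 in all libraries, over 272 bases.

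*WRKY25* was at 10.8 and 12.3 TPM in WL+FR, against 8.97 and 8.38 TPM in WL, in *rev-5*, at 10.3 and 10.4 TPM in WL+FR, against 6.37 and 6.71 TPM in WL, in *wox4*, and at 9.33 and 10.102 TPM in WL+FR, against 6.55 and 7.43 TPM in WL, in Col-0. *WRKY26* was at 8.01 and 7.26 TPM in WL+FR, against 4.45 and 4.58 TPM in WL, in *rev-5*, at 7.49 and 6.69 TPM in WL+FR, against 4.45 and 4.50 TPM in WL, in *wox4*, and at 5.03 and 7.46 TPM in WL+FR, against 4.19 and 3.60 TPM in WL, in Col-0. The light groups of both genes were apart in every genotype. For *WRKY25* the log2 fold change was 0.37 in *rev-5*, 0.59 in *wox4* and 0.42 in Col-0, and for *WRKY26* it was 0.65, 0.56 and 0.55 in the same order, with adjusted p values between 0.00396 and 0.0466 over both genes. Of the other 7 tested group I genes, *WRKY4*, which adds to resistance against necrotrophs, was called in *rev-5* (log2 fold change of 0.38, adjusted p = 0.0286), and *WRKY1*, *WRKY2*, *WRKY3*, *WRKY20*, *WRKY32* and *WRKY44*, the trichome and seed coat regulator also known as TTG2, were called in no genotype. Their log2 fold changes lay between -0.25 and 0.31. The call of *WRKY4* was lost under quantile normalization.

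Of the 7 genes of the calmodulin-binding subgroup IId, *WRKY39* and *WRKY17* were called in all genotypes and *WRKY7* and *WRKY15* in *wox4*. Under quantile normalization the calls of *WRKY17* in *rev-5* and of *WRKY7* and *WRKY15* in *wox4* were lost. *WRKY39* is known from the response to heat, and *WRKY17* acts with *WRKY11* as a negative regulator of basal resistance to bacteria. *WRKY39* was at 72.2 and 71.1 TPM in WL+FR, against 57.2 and 53.4 TPM in WL, in *rev-5*, at 63.5 and 66.9 TPM in WL+FR, against 48.9 and 49.3 TPM in WL, in *wox4*, and at 70.1 and 71.9 TPM in WL+FR, against 51.4 and 50.2 TPM in WL, in Col-0. *WRKY17* was at 31.4 and 30.2 TPM in WL+FR, against 24.5 and 23.5 TPM in WL, in *rev-5*, at 30.5 and 29.99 TPM in WL+FR, against 20.6 and 20.4 TPM in WL, in *wox4*, and at 31.3 and 30.2 TPM in WL+FR, against 18.3 and 22.5 TPM in WL, in Col-0. In both genes the light groups were apart in each genotype.

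For *WRKY39* the log2 fold change was 0.37 in *rev-5*, 0.40 in *wox4* and 0.47 in Col-0, each with an SE of 0.05, at adjusted p values of 0.00142, 0.000648 and 0.000229 in that order. For *WRKY17* it was 0.35 in *rev-5*, 0.54 in *wox4* and 0.57 in Col-0, with an SE of 0.09 and adjusted p values of 0.0309, 0.0026 and 0.00174. The SE of *WRKY39* was the smallest of the 10 genes called in every genotype. *WRKY11* was at 47.1 and 56.3 TPM in WL+FR, against 40.3 and 43.2 TPM in WL, in *rev-5*, at 48.6 and 43.6 TPM in WL+FR, against 44.8 and 47.3 TPM in WL, in *wox4*, and at 45.1 and 46.4 TPM in WL+FR, against 45.6 and 40.8 TPM in WL, in Col-0. *WRKY11* had light groups that overlapped in *wox4* and Col-0, and its adjusted p was 0.0682 in *rev-5*, 1 in *wox4* and 0.628 in Col-0.

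*WRKY15* was at 51.7 and 57.8 TPM in WL+FR, against 45.8 and 48.5 TPM in WL, in *rev-5*, at 53.9 and 54.1 TPM in WL+FR, against 43.1 and 43.5 TPM in WL, in *wox4*, and at 51.7 and 58.3 TPM in WL+FR, against 45.7 and 47.3 TPM in WL, in Col-0. *WRKY7* was at 34.8 and 32.1 TPM in WL+FR, against 33.7 and 30.7 TPM in WL, in *rev-5*, at 37.99 and 33.4 TPM in WL+FR, against 29.4 and 26.5 TPM in WL, in *wox4*, and at 31.7 and 33.1 TPM in WL+FR, against 28.6 and 25.1 TPM in WL, in Col-0. *WRKY15*, which takes part in cell expansion and stress tolerance, had light groups apart in each genotype and was called in *wox4* alone (log2 fold change of 0.31, adjusted p = 0.0159, against 0.093 in *rev-5* and 0.0547 in Col-0). *WRKY7*, a relative of *WRKY11* and *WRKY17*, was called in *wox4* (log2 fold change of 0.34, adjusted p = 0.0337) and its light groups overlapped in *rev-5*. *WRKY21* and *WRKY74* were called in no genotype.

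Subgroup IIb holds *WRKY6*, which acts in senescence and represses the phosphate exporter gene *PHO1*, with its close relatives *WRKY31* and *WRKY42*, and *WRKY72*, known from basal defence against nematodes. *WRKY6* and *WRKY31* were called higher in every genotype and *WRKY72* in 2. Quantile normalization ended the calls of *WRKY6* in both mutants, of *WRKY31* and *WRKY47* in *wox4* and of *WRKY72* in Col-0. *WRKY6* was at 17.4 and 16.5 TPM in WL+FR, against 11.96 and 13.3 TPM in WL, in *rev-5*, at 14.4 and 15.2 TPM in WL+FR, against 10.96 and 11.8 TPM in WL, in *wox4*, and at 15.1 and 15.96 TPM in WL+FR, against 11.4 and 10.4 TPM in WL, in Col-0. *WRKY31* was at 14.1 and 14.5 TPM in WL+FR, against 9.43 and 9.18 TPM in WL, in *rev-5*, at 10.5 and 9.33 TPM in WL+FR, against 6.89 and 6.97 TPM in WL, in *wox4*, and at 9.02 and 9.84 TPM in WL+FR, against 6.28 and 6.92 TPM in WL, in Col-0. The light groups of neither gene overlapped within a genotype.

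For *WRKY31* the log2 fold change was 0.57 in *rev-5*, 0.46 in *wox4* and 0.46 in Col-0, each with an SE of 0.10, at adjusted p values of 0.00431, 0.0103 and 0.0106 in that order. For *WRKY6* it was 0.40 in *rev-5*, 0.35 in *wox4* and 0.47 in Col-0, with an SE of 0.09 and adjusted p values of 0.0183, 0.0239 and 0.00566. *WRKY72* was at 12.3 and 12.6 TPM in WL+FR, against 9.34 and 10.4 TPM in WL, in *rev-5*, at 13.9 and 12.7 TPM in WL+FR, against 8.51 and 8.001 TPM in WL, in *wox4*, and at 10.4 and 10.7 TPM in WL+FR, against 7.995 and 7.89 TPM in WL, in Col-0. Its light groups were apart in each genotype, and it was called in *wox4* (0.62, adjusted p = 0.00132) and Col-0 (0.37, adjusted p = 0.0202) and not in *rev-5* (0.31, adjusted p = 0.0521). *WRKY47* was called in *wox4* only (0.53, adjusted p = 0.0395), while *WRKY42*, *WRKY9*, *WRKY36* and *WRKY61* were called in no genotype.

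In the large subgroup IIc, *WRKY75* was called in all 3 genotypes, *WRKY24* in 2 and *WRKY45* and *WRKY51* in 1 each, of 14 tested. The calls of *WRKY75* in *wox4* and of *WRKY24* in *rev-5* and Col-0 were lost under quantile normalization. *WRKY75* (chr5:4149738-4151201) takes part in phosphate acquisition, root hair development and senescence, and *WRKY45* activates the phosphate transporter gene *PHT1;1*. *WRKY75* was at 23.7 and 19.6 TPM in WL+FR, against 11.1 and 12.1 TPM in WL, in *rev-5*, at 16.95 and 17.7 TPM in WL+FR, against 10.9 and 11.7 TPM in WL, in *wox4*, and at 16.1 and 15.2 TPM in WL+FR, against 10.2 and 8.13 TPM in WL, in Col-0. Its WL+FR libraries were all above its WL libraries, in any genotype, and highest in *rev-5*. For *WRKY75* the log2 fold change was 0.84 in *rev-5*, 0.58 in *wox4* and 0.72 in Col-0, each with an SE of 0.12, at adjusted p values of 0.00163, 0.00972 and 0.00295 in that order. *WRKY45* was at 8.80 and 12.5 TPM in WL+FR, against 7.65 and 8.33 TPM in WL, in *rev-5*, at 9.92 and 11.1 TPM in WL+FR, against 4.22 and 5.77 TPM in WL, in *wox4*, and at 8.14 and 8.82 TPM in WL+FR, against 6.92 and 5.28 TPM in WL, in Col-0. In *wox4* its log2 fold change was 0.95 ± 0.19 (SE, adjusted p = 0.00682), against 0.36 in *rev-5* (adjusted p = 0.26) and 0.43 in Col-0 (adjusted p = 0.162).

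*WRKY51*, one of the lysine variants, represses jasmonate responses together with *WRKY50*. *WRKY51* was at 1.91 and 3.18 TPM in WL+FR, against 2.49 and 2.19 TPM in WL, in *rev-5*, at 4.33 and 2.45 TPM in WL+FR, against 1.66 and 0.921 TPM in WL, in *wox4*, and at 2.31 and 4.42 TPM in WL+FR, against 0.581 and 0.926 TPM in WL, in Col-0. The light groups overlapped in *rev-5*, and the call was made in Col-0 alone (log2 fold change of 1.28 ± 0.32 (SE), adjusted p = 0.0208). This call was lost on leaving out either Col-0 WL library or Col-0 WL+FR replicate 4. *WRKY50* was called in no genotype. *WRKY24* was at 8.95 and 8.31 TPM in WL+FR, against 4.58 and 4.94 TPM in WL, in *rev-5*, at 4.71 and 4.27 TPM in WL+FR, against 4.43 and 3.34 TPM in WL, in *wox4*, and at 6.23 and 4.10 TPM in WL+FR, against 3.01 and 2.19 TPM in WL, in Col-0. The groups overlapped in *wox4*, and *WRKY24* was called in *rev-5* (0.74, adjusted p = 0.0339) and Col-0 (0.76, adjusted p = 0.0237).

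*WRKY13*, which promotes lignin deposition in stems, was low in all groups, as was *WRKY12*. *WRKY13* was at 1.57 and 0.503 TPM in WL+FR, against 0.977 and 0.395 TPM in WL, in *rev-5*, at 1.37 and 0.828 TPM in WL+FR, against 1.04 and 0.970 TPM in WL, in *wox4*, and at 1.25 and 0.716 TPM in WL+FR, against 1.72 and 1.74 TPM in WL, in Col-0. Its groups were apart in Col-0, where the WL+FR libraries were lower, and overlapped in both mutants, with adjusted p values of 0.669 in *rev-5*, 0.936 in *wox4* and 0.348 in Col-0. *WRKY12* was at 0.264 and 0.572 TPM in WL+FR, against 0 and 0.281 TPM in WL, in *rev-5*, at 0 and 0 TPM in WL+FR, against 0.270 and 0.276 TPM in WL, in *wox4*, and at 0 and 0.147 TPM in WL+FR, against 0 and 0 TPM in WL, in Col-0. *WRKY12* was thus listed at 0 in 6 libraries and was not tested.

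In subgroup IIe, *WRKY65* (chr1:10236337-10237990) was called higher in each genotype and *WRKY14* in both mutants. Quantile normalization ended the call of *WRKY65* in *rev-5* and both calls of *WRKY14*. *WRKY65* was at 57.9 and 56.6 TPM in WL+FR, against 45.01 and 47.9 TPM in WL, in *rev-5*, at 65.7 and 62.3 TPM in WL+FR, against 42.6 and 41.1 TPM in WL, in *wox4*, and at 56.8 and 56.7 TPM in WL+FR, against 37.8 and 40.8 TPM in WL, in Col-0. For *WRKY65* the log2 fold change was 0.30 in *rev-5*, 0.60 in *wox4* and 0.52 in Col-0, each with an SE of 0.06, at adjusted p values of 0.00936, 0.000113 and 0.000276 in that order. *WRKY14* was at 15.1 and 14.1 TPM in WL+FR, against 10.6 and 9.91 TPM in WL, in *rev-5*, at 11.9 and 12.4 TPM in WL+FR, against 9.26 and 8.60 TPM in WL, in *wox4*, and at 10.5 and 12.1 TPM in WL+FR, against 9.87 and 9.19 TPM in WL, in Col-0. The groups of *WRKY14* did not overlap in any genotype, and its log2 fold change was 0.47 in *rev-5* (adjusted p = 0.0122), 0.40 in *wox4* (adjusted p = 0.0188) and 0.22 in Col-0 (adjusted p = 0.172).

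*WRKY22* and *WRKY29*, which act below the kinase cascade that bacterial flagellin triggers, belong to the same subgroup. *WRKY22* was at 3.97 and 7.41 TPM in WL+FR, against 4.39 and 3.94 TPM in WL, in *rev-5*, at 4.71 and 5.08 TPM in WL+FR, against 4.44 and 4.76 TPM in WL, in *wox4*, and at 5.13 and 5.33 TPM in WL+FR, against 3.99 and 3.76 TPM in WL, in Col-0. *WRKY29* was at 16.4 and 17.05 TPM in WL+FR, against 13.1 and 14.7 TPM in WL, in *rev-5*, at 13.03 and 17.2 TPM in WL+FR, against 11.99 and 10.2 TPM in WL, in *wox4*, and at 15.5 and 12.6 TPM in WL+FR, against 10.4 and 11.5 TPM in WL, in Col-0. *WRKY29* was above in both WL+FR libraries of each genotype and *WRKY22* in those of Col-0, and neither was called, with adjusted p values of 0.0885 or more. *WRKY29* overlaps GH9B15, which was listed at 0 in all libraries, over 251 bases.

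The 3 genes of subgroup IIa, *WRKY18*, *WRKY40* and *WRKY60*, encode partners that repress basal defence and act in abscisic acid signalling. None was called in any genotype, and their median log2 fold change was 0.41 in *rev-5*, 0.63 in *wox4* and 0.59 in Col-0. *WRKY18* was at 4.08 and 4.23 TPM in WL+FR, against 3.37 and 2.43 TPM in WL, in *rev-5*, at 3.57 and 6.07 TPM in WL+FR, against 2.88 and 3.03 TPM in WL, in *wox4*, and at 2.997 and 6.13 TPM in WL+FR, against 2.81 and 2.63 TPM in WL, in Col-0. *WRKY60* was at 3.39 and 5.004 TPM in WL+FR, against 3.47 and 3.03 TPM in WL, in *rev-5*, at 6.47 and 4.94 TPM in WL+FR, against 3.94 and 2.73 TPM in WL, in *wox4*, and at 5.10 and 6.78 TPM in WL+FR, against 3.45 and 3.68 TPM in WL, in Col-0. The light groups of *WRKY18* were apart in each genotype, and those of *WRKY60* in *wox4* and Col-0.

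*WRKY40* was at 2.84 and 2.27 TPM in WL+FR, against 2.25 and 0 TPM in WL, in *rev-5*, at 2.90 and 2.01 TPM in WL+FR, against 0 and 0 TPM in WL, in *wox4*, and at 2.67 and 2.51 TPM in WL+FR, against 0 and 2.56 TPM in WL, in Col-0. *WRKY40* was thus listed at 0 in 4 libraries, all of them in WL. An exact 0 in these tables may be a failed estimate rather than an absent transcript, as the kinase gene *MKK4* was also listed at 0 in 2 WL+FR libraries (*rev-5* replicate 11 and *wox4* replicate 8) and was at 16.3 TPM or more in the other 10. Its adjusted p was 0.352 in *rev-5*, 0.0745 in *wox4* and 0.36 in Col-0, and it overlaps AT1G80850, which was at 5.09 to 10.7 TPM, over 51 bases. With *WRKY53* and *WRKY43*, which was at 0 in 1 library, it was one of the 3 tested members that were not above 0 throughout.

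W-boxes were looked for in the 250 bases before the start of each gene because WRKY factors bind them, and the windows of 5 of the 10 genes called in every genotype are shown. The motif searched was TTGACC or TTGACT, on either strand (as GGTCAA or AGTCAA), with no overlap between the forms, and matches are in capitals. The sequences are from TAIR10.1, each written 5′ to 3′ on the strand of its gene and ending at the base before the annotated start. They lie at chr2:16107985-16108234, plus strand (*WRKY33*), chr2:10439470-10439719, minus strand (*WRKY17*), chr5:4151202-4151451, minus strand (*WRKY75*), chr3:20910624-20910873, minus strand (*WRKY70*) and chr3:1268379-1268628, minus strand (*WRKY39*).
WRKY33: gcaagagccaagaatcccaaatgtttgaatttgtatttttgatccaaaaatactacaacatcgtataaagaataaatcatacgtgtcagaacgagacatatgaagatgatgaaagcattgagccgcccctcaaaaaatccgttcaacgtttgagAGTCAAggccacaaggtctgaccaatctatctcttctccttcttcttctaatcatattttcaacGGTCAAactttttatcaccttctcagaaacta
WRKY17: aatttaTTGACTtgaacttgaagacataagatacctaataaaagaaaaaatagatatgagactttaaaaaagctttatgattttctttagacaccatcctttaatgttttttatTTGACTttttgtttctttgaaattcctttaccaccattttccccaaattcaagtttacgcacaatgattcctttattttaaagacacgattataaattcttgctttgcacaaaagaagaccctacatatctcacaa
WRKY75: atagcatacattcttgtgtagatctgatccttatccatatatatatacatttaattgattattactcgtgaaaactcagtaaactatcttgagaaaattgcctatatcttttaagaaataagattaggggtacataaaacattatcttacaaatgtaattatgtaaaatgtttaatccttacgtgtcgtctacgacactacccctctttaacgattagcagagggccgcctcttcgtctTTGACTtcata
WRKY70: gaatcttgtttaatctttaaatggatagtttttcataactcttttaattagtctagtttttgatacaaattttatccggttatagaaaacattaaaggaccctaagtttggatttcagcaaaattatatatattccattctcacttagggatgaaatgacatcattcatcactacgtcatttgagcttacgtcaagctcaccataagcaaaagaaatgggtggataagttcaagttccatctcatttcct
WRKY39: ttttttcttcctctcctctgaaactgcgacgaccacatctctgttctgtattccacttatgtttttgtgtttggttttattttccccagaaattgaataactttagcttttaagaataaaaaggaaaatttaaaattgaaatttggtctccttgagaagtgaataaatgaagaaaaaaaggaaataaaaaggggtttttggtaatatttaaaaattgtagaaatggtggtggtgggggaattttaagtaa
*WRKY33* held 2 matches, which begin 96 and 32 bases before the start, *WRKY17* held 2, at 244 and 136 bases, and *WRKY75* held 1, at 11 bases. *WRKY25* and *WRKY26* held 1 each, in windows that other annotated genes share. No match was found in the windows of *WRKY6*, *WRKY31*, *WRKY39*, *WRKY65* and *WRKY70*, which says only that these letters are not in these 250 bases.

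A match was thus present in 5 of the 10 genes called in every genotype (50%), in 9 of the 20 called in at least 1 (45.0%) and in 8 of the 34 called in none (23.5%). Of all tested genes with a window, 28.2% held a match (5619 of 19916), and of the 54 tested members 31.5% (17). These shares are a description of the letters and not of binding.

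Across the 54 tested members, the responses of 2 genotypes ran in the same direction to a varying degree. Pearson's r was 0.52 between *rev-5* and Col-0 (Spearman's rho of 0.53), 0.50 between *wox4* and Col-0 (0.64) and 0.12 between *rev-5* and *wox4* (0.33). For the 51 members above 0 in every library, it was 0.53, 0.76 and 0.44 in the same order. Genes are not independent replicates, all libraries share one way of processing, and these values are a description. The response was above 0 in all 3 genotypes in 37 of the 54 and below 0 in all 3 in none. The same count over all tested genes is not given here. In each genotype alone, 68.9% (*rev-5*), 70.4% (*wox4*) and 62.7% (Col-0) of all tested genes were above 0.

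The next question was whether the shade response of the family differed between the mutants and Col-0. No member passed the test of the difference of responses in limma, for *rev-5* or for *wox4*, and 2 and 3 of the 54 (3.7% and 5.6%) had an unadjusted p under 0.05, against 9.19% and 6.93% of all tested genes. Of all tested genes, 0.395% passed for *rev-5* and 0.105% for *wox4*. The median difference over the members was -0.01 for *rev-5* and 0.08 for *wox4*. For *WRKY70* the difference was 0.08 ± 0.19 (SE), adjusted p = 0.937, for *rev-5* and 0.33 ± 0.19 (SE), adjusted p = 0.794, for *wox4*. Members called in one genotype and not in another are therefore not shown to differ between them.

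The levels of a few members differed between *rev-5* and Col-0. *WRKY31* was called higher in *rev-5* in both lights and *WRKY33* in WL, and no member was called lower. These are 2 of 54 members in WL (3.7%) and 1 in WL+FR (1.9%), against 4.67% and 3.54% of all tested genes called in either direction (2.61% and 1.77% called higher), so that the counts are near or below those of genes in general. An unadjusted p under 0.05 was reached by 15 and 9 members (27.8% and 16.7%), against 18.6% and 17.0% of all tested genes. A stricter rule, with an adjusted p under 0.001 and a log2 fold change beyond 1 in size, was passed by no member in WL or WL+FR, and by 0.215% and 0.170% of all tested genes. The median log2 fold change was 0.11 in WL, beside 0.00 over all genes, and 0.10 in WL+FR, beside 0.02.

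*WRKY31* was at 14.1 and 14.5 TPM in *rev-5*, 10.5 and 9.33 TPM in *wox4* and 9.02 and 9.84 TPM in Col-0 in WL+FR. In WL it was at 9.43 and 9.18 TPM in *rev-5*, 6.89 and 6.97 TPM in *wox4* and 6.28 and 6.92 TPM in Col-0. Both *rev-5* libraries were above the libraries of the other genotypes in the same light. The log2 fold change of *rev-5* over Col-0 was 0.56 ± 0.10 (SE), adjusted p = 0.0165, in WL+FR and 0.44 ± 0.10 (SE), adjusted p = 0.0353, in WL.

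*WRKY33* was at 19.6 and 21.3 TPM in *rev-5*, 14.1 and 14.3 TPM in *wox4* and 13.7 and 13.8 TPM in Col-0 in WL, where the *rev-5* libraries were the highest, with a log2 fold change over Col-0 of 0.54 ± 0.13 (SE), adjusted p = 0.0498. In WL+FR it was at 31.4 and 27.1 TPM in *rev-5*, 25.7 and 26.7 TPM in *wox4* and 20.7 and 28.5 TPM in Col-0, and *rev-5* and Col-0 overlapped (0.26 ± 0.13 (SE), adjusted p = 0.362). *WRKY70* was higher in both *rev-5* libraries than in both Col-0 libraries in either light without passing the test, with log2 fold changes of 0.58 ± 0.14 (SE), adjusted p = 0.0525, in WL+FR and 0.50 ± 0.14 (SE), adjusted p = 0.0741, in WL. The call of *WRKY33* was lost on leaving out any of 10 of the 12 libraries, that of *WRKY31* in WL on leaving out any of 8, and that of *WRKY31* in WL+FR on leaving out Col-0 WL+FR replicate 3 or either *rev-5* WL+FR library. Among the markers in WL, *rev-5* had higher calls over Col-0 for 2 of 8 tested root and 2 of 11 tested touch and wound genes. The same held for 3 of the 4 green shoot markers, and no gene of these 3 lists was called lower. The summed root level was 877 and 929 TPM in *rev-5* against 679 and 712 TPM in Col-0. For touch and wound genes it was 304 and 279 TPM against 256 and 238 TPM. For green shoot markers it was 29657 and 30139 TPM against 25589 and 26812 TPM. The part of these markers in the WRKY values was not tested.

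**Figure D4:**
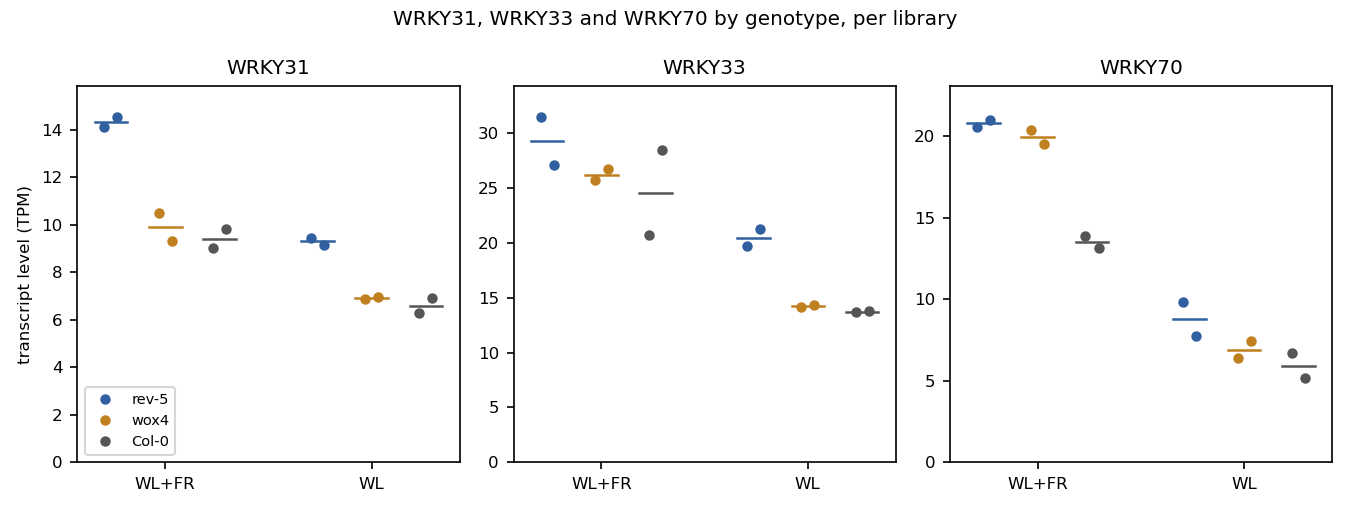
Transcript level (TPM, each axis from 0) of *WRKY31*, *WRKY33* and *WRKY70* per library in WL+FR and WL, with *rev-5* in blue, *wox4* in orange and Col-0 in grey; points are libraries and bars the mean of 2. The *rev-5* points of *WRKY31* lie above all points of the other genotypes in the same light, whereas those of *WRKY33* in WL+FR overlap with Col-0.

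Between *wox4* and Col-0, no member was called by limma in WL or in WL+FR, and 3 and 6 members (5.6% and 11.1%) had an unadjusted p under 0.05, against 9.26% and 14.5% of all tested genes. Of all tested genes, 0.265% and 1.05% were called. *WRKY70* was again above Col-0 in both *wox4* libraries in WL+FR (0.53 ± 0.14 (SE), adjusted p = 0.123).

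Between *rev-5* and *wox4*, *WRKY31* was called in WL+FR (0.49 ± 0.10 (SE), adjusted p = 0.0498), and no member in WL, where 12 (22.2%) had an unadjusted p under 0.05, against 14.3% of all tested genes. Of all tested genes, 1.27% were called in WL+FR and 2.83% in WL, and 0.0899% passed the stricter rule in WL+FR, with no member among them. The comparison uses the same *rev-5* libraries as that with Col-0 and is not independent of it. The call rested close to the threshold and was lost on leaving out any of the 12 libraries.

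Genes that act with WRKY factors were followed through lists of kinases, of VQ proteins, which bind WRKY factors, and of genes known as targets. Of 9 tested kinases, none was called in WL+FR in *rev-5* and *MPK6* and *MKK9* were called higher in *wox4* and in Col-0. Over all tested genes, 11%, 15.4% and 13.3% were called higher in *rev-5*, *wox4* and Col-0. *MPK6*, a kinase that phosphorylates *WRKY33*, had log2 fold changes of 0.13 in *rev-5* (adjusted p = 0.324), 0.36 in *wox4* (adjusted p = 0.0107) and 0.36 in Col-0 (adjusted p = 0.00951). Its fellow kinase *MPK3* was called in none, with adjusted p values of 0.055, 0.251 and 0.276. The median log2 fold change of the kinases was 0.25, 0.27 and 0.25 in *rev-5*, *wox4* and Col-0. Over all tested genes it was 0.11, 0.13 and 0.08.

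Of 7 tested VQ proteins, 2 were called higher in WL+FR in *rev-5*, 2 in *wox4* and 1 in Col-0. The shares of all tested genes in these genotypes were 11%, 15.4% and 13.3%. *JAV1*, a repressor of jasmonate responses, was called in each. *JAV1* was at 17.8 and 15.7 TPM in WL+FR, against 10.4 and 9.89 TPM in WL, in *rev-5*, at 16.7 and 16.4 TPM in WL+FR, against 11.1 and 10.4 TPM in WL, in *wox4*, and at 15.8 and 12.03 TPM in WL+FR, against 10.04 and 7.81 TPM in WL, in Col-0. All its WL+FR libraries were above all its WL libraries. *MKS1*, which links *MPK4* to *WRKY33* and *WRKY25*, was called in *rev-5* (0.47, adjusted p = 0.0489), and *MVQ1* in *wox4* (0.49, adjusted p = 0.0103).

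Of the 18 genes on the target list, 9 were tested, and 2, 3 and 2 were called higher in WL+FR in *rev-5*, *wox4* and Col-0, with none lower. Among all tested genes, 11%, 15.4% and 13.3% were called higher in these genotypes. *PAD3*, the camalexin enzyme gene that *WRKY33* controls, was called in each. *PAD3* was at 21.9 and 21.1 TPM in WL+FR, against 12.8 and 12.8 TPM in WL, in *rev-5*, at 13.3 and 14 TPM in WL+FR, against 4.94 and 3.91 TPM in WL, in *wox4*, and at 17.1 and 17.1 TPM in WL+FR, against 3.95 and 5.90 TPM in WL, in Col-0. Its log2 fold change was 0.71 in *rev-5* (adjusted p = 0.0132), 1.44 in *wox4* (adjusted p = 0.00017) and 1.63 in Col-0 (adjusted p = 7.86e-05). In WL it was higher in *rev-5* than in Col-0 (1.24, adjusted p = 0.00185), with no overlap of the libraries, as was the case for *WRKY33*. Whether the levels of *PAD3* and *WRKY33* are linked here was not tested.

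The salicylic acid receptor gene *NPR1* was called in *rev-5* (0.35, adjusted p = 0.0272), the immune regulator *EDS1* in *wox4* (0.32, adjusted p = 0.0367) and the ethylene biosynthesis gene *ACS6* in Col-0 (0.58, adjusted p = 0.0106). *PHT1;1*, the phosphate transporter gene that *WRKY45* and *WRKY75* act on, was called in *wox4* (0.50, adjusted p = 0.000837), where *WRKY45* was called as well. *PHT1;1* was not called in *rev-5* (-0.06, adjusted p = 0.628) or Col-0 (-0.08, adjusted p = 0.513). The difference between the responses of *wox4* and Col-0 did not pass in limma (0.58, adjusted p = 0.111). Against Col-0, *PHT1;1* was called higher in *rev-5* in WL (0.30, adjusted p = 0.0388) and WL+FR (0.32, adjusted p = 0.0377). It was also called higher in *wox4* in WL+FR (0.44, adjusted p = 0.026). *WRKY75* was called in all 3 genotypes, and a link between these values was not tested. The 9 target genes under 0.5 TPM, among them *CYP71A13*, *FRK1*, *PR1* and *SAG12*, were not tested. The median log2 fold change of the tested targets was 0.30, 0.25 and 0.15 in *rev-5*, *wox4* and Col-0. Over all tested genes it was 0.11, 0.13 and 0.08 in that order.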

How the data were processed

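RNA-seq was analysed in 12 libraries of whole Arabidopsis seedlings, 6 groups of 2, grouped by the genotype and light that the labels give. Each library has a table in which the authors deposited FPKM values per gene (fragments scaled by transcript length and by the size of the library) with lower and upper bounds. The study's methods name HISAT2 and TAIR10, while the submitters' processing notes name FastQC, Bowtie2 and Cufflinks, with versions not given in the sources used here, so the program behind the values is not settled. No counts were used and counting error was not modelled. The fragments implied by the bounds are fewer than the read pairs the study's methods state, and are not used as depth. The study's methods call the replicates biological, and p-values measure the spread between these libraries.

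Of 32826 rows, 2 repeated a gene identifier and were summed, giving 32824 genes. FPKM was rescaled to TPM, and the 20020 genes that averaged 0.5 TPM or more were fitted on log2(TPM + 1) with limma 3.58.1 (lmFit, eBayes with trend) in R 4.3.3, with 1 mean for each of the 6 groups. The spread is thus shared by all groups. P-values were two-sided and adjusted by Benjamini-Hochberg over all tested genes in each of 11 comparisons, and a gene was called at an adjusted p under 0.05. Fold changes are on the log2(TPM + 1) scale, which understates the change of low genes. Python 3.11.15 (pandas 2.3.3, matplotlib 3.10.9) was used for the rest.

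Values per library are given for the 5 members with the highest mean, for the members called in a comparison (the 8 with the smallest p where more were called) and for WRKY genes chosen by role, and others are named beside counts, chosen after their values were seen. Members, gene lists and roles were chosen with earlier results of these data known. The subgroups follow the usual classification of the family. Alternatives were quantile normalization, FPKM kept unscaled, all genes with any value, a smaller pseudocount (0.1), limma without trend, the stricter thresholds of the study, each library left out in turn and, chosen after seeing the data, only genes above 0 in all 12 libraries.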

Additional observations from a re-analysis of the deposited data

Results flagged for a closer look

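Light groups that were apart in opposite directions in *rev-5* and *wox4* were seen in 2 of the 54 tested members (3.7%), against 3.18% of all tested genes, and no difference of this kind was tested. They were *WRKY47* and *WRKY8*. *WRKY47* was at 4.11 and 5.20 TPM in WL+FR, against 5.34 and 6.12 TPM in WL, in *rev-5*, and at 5.90 and 6.82 TPM in WL+FR, against 3.77 and 4.45 TPM in WL, in *wox4*, a difference of -0.78 between the log2 responses of *rev-5* and *wox4*. *WRKY8* was at 1.27 and 1.18 TPM in WL+FR, against 1.43 and 1.45 TPM in WL, in *rev-5*, and at 0.671 and 0.708 TPM in WL+FR, against 0.646 and 0.569 TPM in WL, in *wox4*, a difference of -0.21. For *WRKY8* each response was smaller than its SE of 0.31 and not called (limma, adjusted p of 0.838 in *rev-5* and 0.914 in *wox4*). Groups of 2 allow no test for a library that stands apart.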

How the results depend on the processing

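No paired analysis was possible because the replicate numbers are not shared between groups. None of the 47 called log2 fold changes that the text names changed direction under any alternative. *WRKY39* and *WRKY70* were called higher in WL+FR in all 3 genotypes under each alternative other than the study's thresholds, which *WRKY70* alone passed. Members called in all 3 genotypes numbered 10 with a pseudocount of 0.1, 8 without the filter, 7 with FPKM, 2 under quantile normalization, 9 without trend (8 of the 10), 9 over genes above 0 throughout (an alternative chosen after seeing the data) and 4 to 9 with 1 library left out. Quantile normalization moved the median shade response of all genes to -0.01 in *rev-5*, -0.02 in *wox4* and -0.02 in Col-0, against 0.11, 0.13 and 0.08, and left 4 members called in *rev-5* and 9 in *wox4*. Of the 20020 tested genes it left 2102 called in *rev-5* and 2654 in *wox4*, in either direction. The study's thresholds left 1 member in each genotype, and 0 for *rev-5* against Col-0 in WL, in WL+FR and for *rev-5* against *wox4* in WL+FR.

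For *rev-5* against Col-0 in WL, 1 member was called without the filter and 1 without trend. In WL+FR, 2 were called with FPKM and 2 over genes above 0 throughout. For *rev-5* against *wox4* in WL+FR, 0 were called with a pseudocount of 0.1, without the filter or over genes above 0 throughout. With each library left out in turn, where a lone library is assumed to vary like the other groups, the counts ran from 6 to 13 in *rev-5*, 9 to 19 in *wox4* and 8 to 13 in Col-0 for WL+FR over WL. They ran from 0 to 2 for *rev-5* against Col-0 in either light, from 0 to 1 for *rev-5* against *wox4* in either light, for *wox4* against Col-0 in WL and for both differences of responses, and stayed at 0 for *wox4* against Col-0 in WL+FR.

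Values that changed sign were all uncalled. *WRKY53* in Col-0 was -0.0065 with FPKM, -0.086 under quantile normalization and -0.25 to 0.27 with 1 library left out. Under quantile normalization *WRKY54* was -0.0011 in *rev-5*, *WRKY13* -0.083 and *WRKY22* -0.078 in *wox4*. With 1 library left out, *WRKY13* ran from -0.14 to 0.63, *WRKY22* from -0.055 to 0.70, *WRKY53* from -2.08 to 0.60 and *WRKY54* from -0.15 to 0.39 in *rev-5*, and *WRKY13* ran from -0.13 to 0.24 in *wox4*. The cause of these changes was not tested.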

Other observations

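*RRS1* and *RRS1B*, immune receptors whose proteins carry a WRKY domain, fall outside the naming rule of the family set. *RRS1* was at 7.39 to 9.61 TPM and *RRS1B* at 8.39 to 12.6 TPM over the 12 libraries, and neither was called in WL+FR in any genotype (lowest adjusted p in limma of 0.261 and 0.167).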
